A study of Mus musculus with 58 samples.

Results

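Chromatin sites of endogenous PSPC1 in mouse embryonic stem cells were sorted by how many of 3 ribosome biogenesis factors, CIRH1A, UTP3 and UTP6, had a peak at the same place. A site was a peak of knock-in replicate 1 that shared at least 1 bp with a peak of replicate 2, merged with it. The rule gave 10352 sites, out of 29792 merged regions of both knock-in lists and 67384 merged regions of all 9 peak lists used here. The series holds 58 samples, and the other 49 were not analysed here.

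PSPC1 is an RNA-binding protein of the DBHS family and a component of paraspeckles, nuclear bodies built on the long noncoding RNA Neat1. CIRH1A (also called UTP4), UTP3 and UTP6 belong to the small-subunit processome, the large nucleolar assembly in which the precursor of the small ribosomal subunit's RNA is folded and cut. ChIP-seq, in which DNA crosslinked to a precipitated protein is sequenced, records for such proteins where they lie close to DNA, directly or through RNA and other proteins.

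Endogenous PSPC1 was read in 2 libraries of cells made from the CJ9 line, in which the PSPC1 gene carries an AID (degron) and FB tag. CIRH1A, UTP3 and UTP6 were each read in 1 library, from cells made from the BirA J1 line that overexpress the FB-tagged protein. All 5 libraries have the strain label 129/Ola, came from untreated cells, were fixed with 3% formaldehyde for 10 min and were precipitated with 5 µg of FLAG antibody. The parental line and the mode of expression therefore change together between PSPC1 and the factors. The same J1-derived cells, overexpressing PSPC1, hnRNPU, SAFB or SAFB2, gave the 4 other lists. Overexpressed PSPC1 was fixed with 1% formaldehyde, and hnRNPU, SAFB and SAFB2 with 2 mM DSP, a protein crosslinker, and 1% formaldehyde, before a streptavidin purification. No label says whether a line was 1 clone, or whether the knock-in libraries came from separate cultures. The factor lists have no replicate, so a difference between factors cannot be set against replicates.

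Knock-in replicate 1 had 18455 peaks and replicate 2 had 22926, against 9689 for CIRH1A, 14562 for UTP3 and 40217 for UTP6. Read depth is unknown, and a longer list overlaps more sites. The lists cover 0.353% (CIRH1A), 0.610% (UTP3) and 1.78% (UTP6) of chromosomes 1 to 19 and X. Chromosome 1 stood apart in the knock-in libraries. It held 4137 peaks (22.4%) of replicate 1, 4355 of replicate 2 and 18.1% of the sites, but 10.1% of CIRH1A, 10.9% of UTP3 and 8.91% of UTP6 peaks. Results are given with and without it, and its part in them was not tested otherwise. Shares are given with Wilson 95% intervals in parentheses. Peaks of 1 library are not replicates, so such an interval covers just the error of counting.

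With any shared base in the full lists counted as overlap, most PSPC1 sites carried at least 1 of the 3 factors. UTP6 was the most frequent of them. Most sites had none, however, when the overlap had to cover 50% of both peak and site (54.4%). The same held with an equal number of peaks per list (56.9%). None of the factors was present at 2908 sites, or 28.1% (27.2 to 29.0), against 50.6% of all merged knock-in regions. One factor was present at 3264 sites (31.5%), 2 factors at 2057 (19.9%) and all 3 at 2123, or 20.5% (19.7 to 21.3), against 13% of all merged knock-in regions. UTP6 peaks lay at 7311 sites (70.6%), UTP3 peaks at 3784 (36.6%) and CIRH1A peaks at 2652 (25.6%). The corresponding shares of all merged knock-in regions were 48.4%, 23.6% and 16.7%. The order of the 3 factors follows the order of the lengths of their lists.

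The 3 factors were nested rather than spread over separate sites. A UTP6 peak was present at 98.4% of the sites with CIRH1A and at 97.1% of the sites with UTP3. Sites with UTP6 alone were the largest combination (3148 sites, 30.4%), followed by the sites with all 3 factors, UTP3 with UTP6 (1553, 15.0%) and CIRH1A with UTP6 (487, 4.70%). By contrast, UTP3 was alone at 91 sites, CIRH1A at 25, and CIRH1A with UTP3 but without UTP6 at 17. Nesting was not limited to PSPC1 sites: the factors share much of their lists elsewhere too. It was nevertheless denser there, since 48.3% of UTP6 peaks at the sites overlapped a UTP3 peak, against 30.5% of UTP6 peaks elsewhere. The shares of UTP6 peaks that overlapped CIRH1A were 34.2% and 19.9%, and those of CIRH1A peaks that overlapped UTP3 were 79.4% and 69.4%. Factor peaks at the sites were also wider, and width was not held equal. UTP6 peaks with no other factor had a median of 1178.5 bp there and 814 bp elsewhere.

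Agreement between the knock-in libraries and the presence of the factors went together. Of the replicate 1 peaks also found in replicate 2, 19.4% had all 3 factors and 31.1% had none, and the shares for replicate 2 were 19.1% and 32.0%. Of the peaks found in replicate 1 alone, 6.20% had all 3 factors and 71.8% had none. Of those found in replicate 2 alone, 10.7% had all 3 and 56.6% had none. In each library the shared peaks thus had the factors more often than the unshared ones, by more than the difference between the libraries. Shared peaks were also wider and scored higher, and neither was held equal here. Among replicate 1 peaks without a factor, median width and rank were 1632 bp and 59.6 if shared, 1136 bp and 27.2 if not. For replicate 2 they were 1529 bp and 61.8, against 1080 bp and 27.3. Over all its peaks, replicate 1 had 14.0% with 3 factors and replicate 2 had 14.8%, below the 20.5% of the sites.

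**Figure D1:**
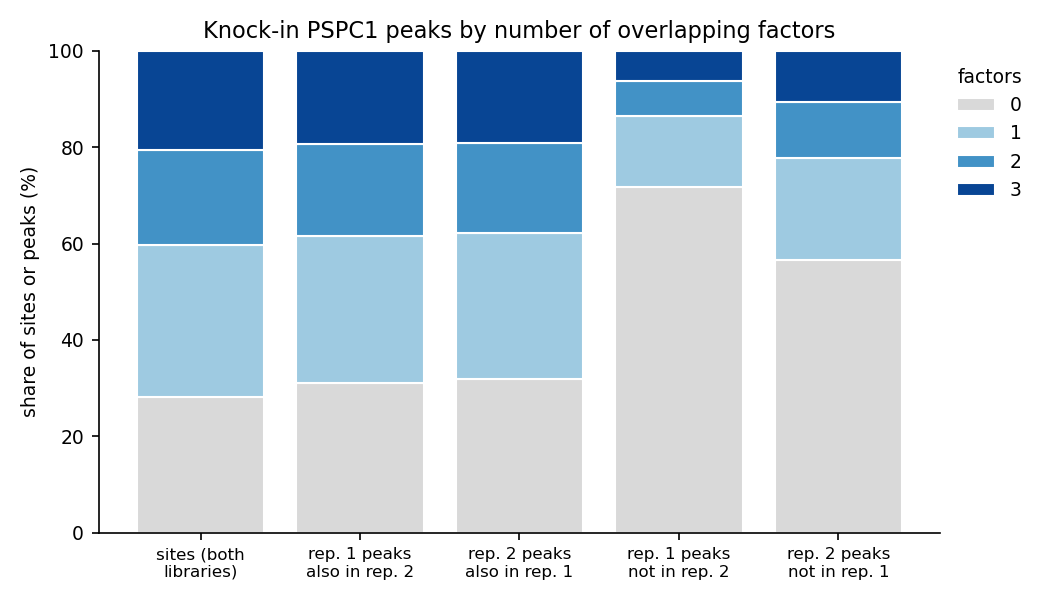
Share of knock-in PSPC1 sites, and of the peaks of each knock-in library, by the number of overlapping factors among CIRH1A, UTP3 and UTP6 (0 to 3, light to dark). Peaks not found in the other library had none of the factors in 71.8% (replicate 1) and 56.6% (replicate 2), against 28.1% of the sites.

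Seen from the factors, the more of them lay together, the more often the place was a PSPC1 site. The peaks of the 3 factor lists merged into 41427 regions. Of regions with 1 factor 14.2% were knock-in sites, of those with 2 factors 22.8%, and of those with 3 factors 31.2%. With any peak of replicate 1 in place of the sites the shares were 18.2%, 28.7% and 38.1%, and with replicate 2 they were 23.7%, 37.3% and 49.9%. The rise was present in both libraries. Without chromosome 1 it ran from 13.5% over 21.1% to 27.3%. Peaks that lay with other factors were also wider, and a wider region meets a site more easily. UTP6 peaks away from the sites had median widths of 814, 1119 and 1382 bp with 0, 1 and 2 other factors. The part of width in the rise was not tested. High-scoring factor peaks were also more often at PSPC1 sites: from the lowest to the highest score quartile, the share rose from 11.6% to 29.1% for UTP6, from 23.7% to 34.3% for CIRH1A and from 22.4% to 29.6% for UTP3. UTP6 peaks that lay with both other factors scored high in any case, at a median percentile rank of 89.0 in their list at PSPC1 sites and 85.6 elsewhere.

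Factor peaks at PSPC1 sites mostly lay inside the site, with a modest shift to its centre for CIRH1A and UTP3 and close to none for UTP6. Of the peaks at the sites, 89.0% for CIRH1A, 82.6% for UTP3 and 69.7% for UTP6 lay wholly within the site. Nearly all were single: 45 sites held more than 1 CIRH1A peak, 53 more than 1 UTP3 peak and 361 more than 1 UTP6 peak. The midpoint fell in the central 50% of the site's width for 85.3% of CIRH1A peaks (83.9 to 86.6, 2680 peaks), 86.5% of UTP3 peaks (3810) and 84.3% of UTP6 peaks (7550). The median distance from the site's centre was 266, 243 and 260.5 bp.

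These central shares depend on the widths, because a peak that fills much of a site cannot have its midpoint near the edge. The median share of a site that was covered was 43.9% for CIRH1A, 51.0% for UTP3 and 61.3% for UTP6. For peaks wholly inside a site, the offset was therefore expressed relative to the largest offset that the peak's own width allows, so that even placement would put 50% in the inner 50% of this room. The inner share was 60.2% (58.2 to 62.1, 2401 peaks) for CIRH1A, 57.6% (55.9 to 59.3, 3170) for UTP3 and 52.3% (51.0 to 53.6, 5362) for UTP6. Over all peaks of replicate 1 the shares were 57.2%, 55.6% and 51.4%, and over those of replicate 2 they were 56.0%, 54.1% and 50.9%. The UTP6 intervals of both single libraries include 50%. Without chromosome 1 the shares at the sites were 60.3%, 57.9% and 52.1%.

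**Figure D2:**
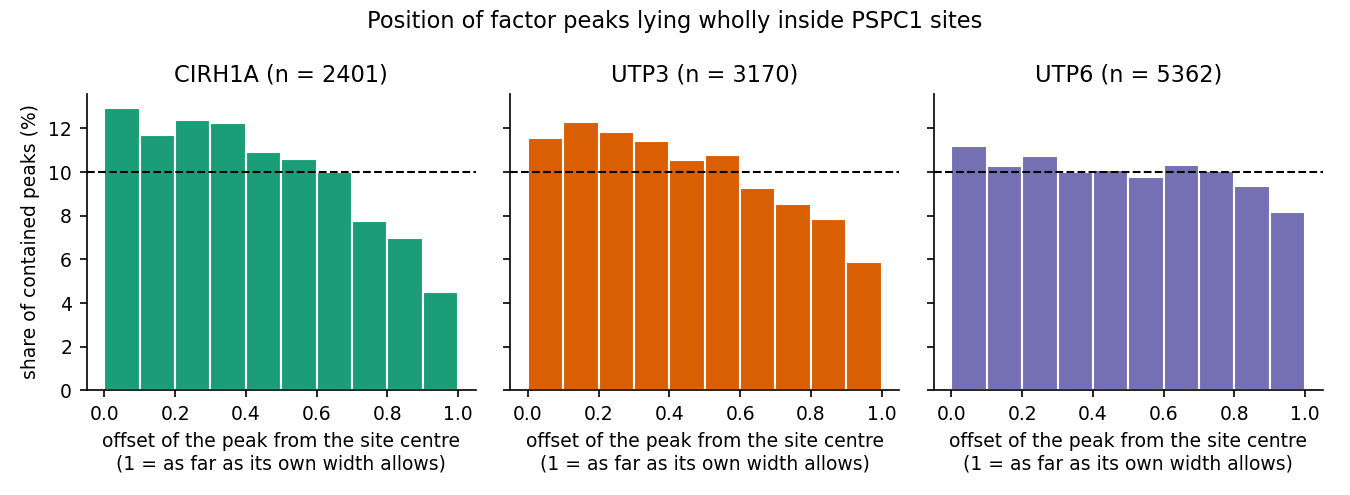
Offset of factor peaks lying wholly inside knock-in sites from the site's centre, in bins from 0 (centre) to 1 (as far out as the peak's own width allows), as a share of these peaks; the dashed line is the 10% per bin of even placement. CIRH1A and UTP3 fall below the line towards the edge and UTP6 stays near it, with 60.2%, 57.6% and 52.3% of the peaks in the inner 5 bins.

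Narrow and wide sites differed in this offset. In sites under 1.5 kb, the inner share was 71.7% for CIRH1A, 66.3% for UTP3 and 62.3% for UTP6. In sites of 10 kb or more it was 37.2% (24.4 to 52.1, 43 peaks), 38.5% (27.6 to 50.6, 65 peaks) and 36.5% (30.7 to 42.8, 241 peaks). In those widest sites the UTP6 interval lies below 50%, and those of CIRH1A and UTP3 include it. For UTP6 the share in the widest sites was 32.7% against replicate 1 alone and 33.6% against replicate 2 alone. The number of factors made little difference: UTP6 had 53.5% at sites with UTP6 alone, 51.6% with 2 factors and 50.8% with 3, and these intervals overlap.

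Overexpressed PSPC1 and hnRNPU peaks were more central than those of the ribosome biogenesis factors by this measure, and SAFB and SAFB2 peaks were not. Overexpressed PSPC1 had 70.9% (69.9 to 71.8) of its contained peaks in the inner 50% and hnRNPU, a nuclear matrix RNA-binding protein, had 65.3% (63.4 to 67.2). SAFB and SAFB2, the scaffold attachment factors, had 51.1% (45.7 to 56.5) and 46.0% (40.6 to 51.4). Just 35.6% of the SAFB peaks at PSPC1 sites lay wholly inside the site, so this value rests on 325 peaks.

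At the 2123 sites with all 3 factors, the midpoints of factor peaks lay closer to each other than to those of PSPC1 peaks. The median distance between midpoints was 120 bp for UTP3 and UTP6, 130 bp for CIRH1A and UTP3 and 142.5 bp for CIRH1A and UTP6. From the replicate 1 peak it was 242 bp to CIRH1A, 215.5 bp to UTP3 and 197 bp to UTP6, and from replicate 2 it was 226, 203 and 188 bp. The knock-in libraries themselves lay 190 bp apart at these sites, so the distances from PSPC1 to UTP6 and UTP3 were of the size of the distance between replicates. The 3 factor midpoints fitted within 250 bp at 54.4% of the sites and within 500 bp at 84.5%, with a median span of 228 bp. At the 2937 regions with 3 factors and no knock-in peak the median span was 158 bp. Those regions were merged from overlapping factor peaks, whereas factor peaks at a site need not overlap each other, so the spans are not measured alike. UTP6 peaks with both other factors were also wider at the sites, with a median of 1775 bp against 1382 bp elsewhere.

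The strongest sites with 3 factors were ranked by the mean percentile rank of the score over all 5 lists, and their positions are those of the lists, in mm9 per the submitters' processing notes, counted from 1. The first lay on chr17 from 39979445 to 39986238, with scores of 2481 and 3100 in knock-in replicates 1 and 2 and 3100 in each factor list, the value at which scores pile up. Its CIRH1A, UTP3 and UTP6 midpoints were 123.5, 5 and 123 bp from the centre of a site of 6794 bp. It was also the single one of these 5 sites with a peak in all 4 other lists. Overexpressed PSPC1 scored 3100 there as well, so the top value was not particular to the factors. Whether reads of a repeated sequence gather at this site was not tested. The second, on chr13 from 74665556 to 74668712, scored 1538 and 1229 in the knock-in lists and 479, 608 and 448 for CIRH1A, UTP3 and UTP6. There UTP3 and UTP6 lay 23.5 and 53 bp from the centre, but CIRH1A 507 bp.

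In each of the other 3 leading sites, the factors lay at similar distances from the centre. These distances carry no side, so similar values need not mean the same place. On chr17 from 13742003 to 13746467, the 3 factor midpoints lay 535.5, 544.5 and 518.5 bp from the centre. On chr1 from 179186814 to 179191747, both knock-in scores were 3100 while CIRH1A scored 161, UTP3 210 and UTP6 510, at 1001, 840.5 and 868 bp from the centre. On chr4 from 139814211 to 139816294, the distances were 197, 170 and 210 bp in a site of 2084 bp. All 5 had a peak of overexpressed PSPC1 and 4 had one of hnRNPU. Over all sites with 3 factors the shares were 90.6% and 54.2%. No annotation of this build was used, so no site is assigned to a gene, exon or intron.

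Width separated UTP6 from the other factors. The share of sites with UTP6 was 59.2% at 1 to 1.5 kb, 72.8% at 2 to 3 kb and 78.4% (72.4 to 83.4) at 10 kb or more. In the 97 sites under 1 kb it was 51.5% (41.7 to 61.2). Without chromosome 1 the UTP6 share was 77.7% at 3000 to 5000 bp and 76.5% at 10 kb or more. Between these bins it went from 76.1% to 71.9% over all peaks of replicate 1. Over all peaks of replicate 2 it went from 77.4% to 69.9%. The rise of UTP6 was thus not seen from 3000 bp upwards in either library, and the intervals of these bins overlap. CIRH1A was present at 33.0% (24.4 to 42.8) of the sites under 1 kb, and went from 22.2% at 1 to 1.5 kb to 27.3% at 2 to 3 kb and then down to 17.4% (12.9 to 23.0) at 10 kb or more. The share with all 3 factors was 25.8% (18.1 to 35.3) under 1 kb, then 18.3%, 22.4% and 12.2% (8.47 to 17.3) in the same bins, and 9.84% at 10 kb or more without chromosome 1. The widest sites therefore held UTP6 often and all 3 factors seldom. A wider site also meets a peak more easily, and the part of this in the shares was not tested. Of the 213 sites of at least 10 kb, 43 had no factor, 102 had 1, 42 had 2 and 26 had 3.

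**Figure D3:**
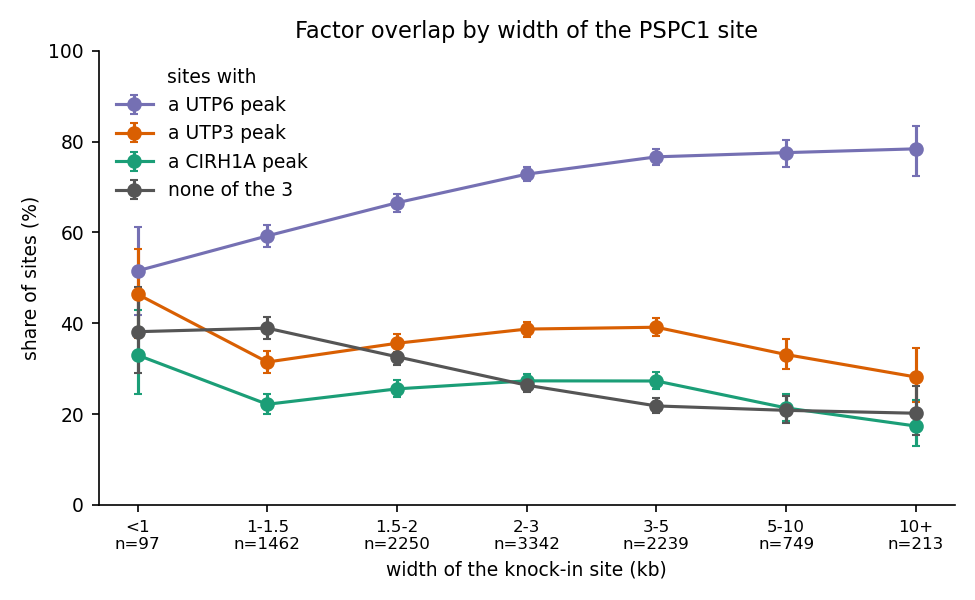
Share of knock-in sites with a UTP6, UTP3 or CIRH1A peak, or with none of them, by width of the site in kb, with Wilson 95% intervals and the number of sites per bin. At the sites UTP6 reaches 78.4% at 10 kb or more, while CIRH1A falls to 17.4%. Over all peaks of each single library, UTP6 does not rise into that bin (71.9% in replicate 1 and 69.9% in replicate 2).

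Sites without a factor were narrower and scored lower than the other classes when any shared base in the full lists counted as overlap, but this direction did not hold in every setting. The median width was 2093 bp with 0 factors, 2467.5 bp with 1, 2437 bp with 2 and 2349 bp with 3. The median percentile rank of the score over both knock-in lists (100 is the highest) was 58.9, 71.1, 72.5 and 70.7. In replicate 1 the median scores were 66.7, 91.3, 92.7 and 85.0, and in replicate 2 they were 71.4, 105.9, 111.9 and 105.9. The sites without a factor were thus lowest in both libraries, and the 3 other classes lay close together.

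Sites with 3 factors were wider than those with none by 256 bp and higher by 11.8 rank points. Over all peaks of 1 knock-in library the differences were 568 to 599 bp and 28.0 to 29.7 points. Both signs turned with a reciprocal overlap of 50% (-800.5 bp and -9.21 points), with windows of 500 bp (-612.5 bp and -1.66), with the highest-scoring 50% of each list (-382 bp and -3.54) and with an equal number of peaks per list (-355.5 bp and -5.69). A site much wider than the factor peak cannot meet the reciprocal overlap, so that setting admits narrow sites by construction. With any shared base counted, a wider site meets a peak more easily, so the main setting favours wide sites. The part of these rules in either sign was not tested. Within score quartiles, UTP6 was present at 55.5% of the narrower and 64.4% of the wider sites in the lowest quartile, but at 79.8% of both in the highest. There the share with all 3 factors was lower in the wider sites, 15.8% against 22.4%.

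The widest sites of the classes differed in how far from the centre the factor peaks lay, with the side not given. The widest with no factor lay on chr19 from 43672573 to 43695153 (22581 bp). The widest with 1 factor, on chr2 from 74504152 to 74539630 (35479 bp), held 3 UTP6 peaks, the best of which scored 114 and lay 15656 bp from the centre. The widest with 2 factors, on chr11 from 96140209 to 96219117, was also the widest of all, at 78909 bp. It held 5 UTP6 peaks, the best of which lay 636 bp from the centre, and a CIRH1A peak that scored 84.3 and lay 14436 bp from it. The widest with 3 factors, on chr6 from 52105125 to 52132345 (27221 bp), had its CIRH1A, UTP3 and UTP6 midpoints at 10046, 9887 and 10170 bp from the centre, with scores of 59.95, 54.1 and 268. All 4 sites scored at least 1982 in both knock-in lists, and all had a peak of overexpressed PSPC1. In the highest score quartile, such a peak was present at 66.6% of sites with 0 factors and 97.4% of those with 3.

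Chromosome 1 held 1875 of the sites, and its sites were split more sharply by score than those of the other chromosomes. At least 1 factor was present at 65.5% of them, against 73.3% elsewhere, but all 3 were present at 25.6% (23.7 to 27.6) against 19.4% (18.6 to 20.2). In the lowest score quartile, 43.0% of chromosome 1 sites and 65.9% of other sites had a factor, and in the highest 90.4% and 79.3%. For all 3 factors the shares on chromosome 1 were 9.82%, 20.4%, 34.6% and 42.9% from the lowest to the highest quartile. Elsewhere they were 18.0%, 21.8%, 22.8% and 15.2%, with no such rise. The median rank of sites with 3 factors and with none was 77.9 and 50.3 on chromosome 1, against 67.9 and 61.8 elsewhere.

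The contrast by score was present in each knock-in library, whereas the differences over all scores were not stable. Among the peaks of the highest score quartile, 34.5% (replicate 1) and 34.8% (replicate 2) of those on chromosome 1 had all 3 factors, against 17.1% and 18.9% elsewhere. In the lowest quartile the shares were 2.80% and 3.35% on chromosome 1, against 8.81% and 9.01%. Over all scores, the difference in sites with at least 1 factor, -7.83 percentage points, became -17.5 and -19.7 points over all peaks of 1 library, and turned to 0.666 points with a score of at least 50, 4.50 with the highest-scoring 50% and 13.0 with an equal number of peaks. The difference in sites with all 3 factors, 6.22 points, turned to -1.16 points without replicate 1 and -1.63 points without replicate 2.

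**Figure D4:**
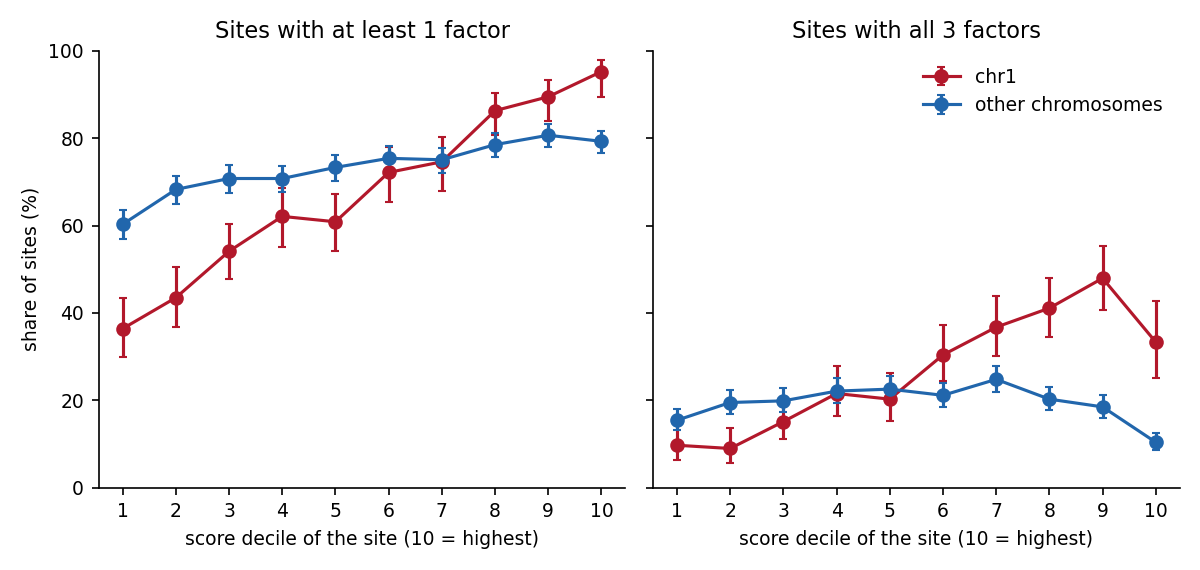
Share of knock-in sites with at least 1 factor (left) and with all 3 (right) by decile of the site's score, for chromosome 1 and the other chromosomes, with Wilson 95% intervals. In the lowest decile 36.4% of chromosome 1 sites and 60.3% of the others have a factor, and in the highest 95.2% and 79.3%; for all 3 factors the highest decile gives 33.3% and 10.4%.

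Factor peaks on chromosome 1 were also more often at PSPC1 sites. The share was 56.6% for CIRH1A, 48.5% for UTP3 and 34.9% for UTP6, against 24.6%, 23.6% and 17.5% over the other chromosomes. The highest values on any of the other 18 autosomes were 29.5%, 28.9% and 20.7%, all on chromosome 11. Chromosome 11 also held the most sites of those 18 autosomes (7.04%), and chromosome 1 held 18.1%. The number of sites per chromosome was not held equal. Among those 18 autosomes the share of sites with all 3 factors ran from 14.4% on chromosome 18 to 29.4% on chromosome 8, with a median of 18.7%. On the X chromosome it was 10.3% (6.23 to 16.5) of 136 sites, and 44.9% of its sites had any factor. Over all peaks of 1 library the X chromosome had 11.9% and 12.4% with all 3 factors, which lies within the range of those autosomes (10.9% to 17.8% and 11.8% to 19.2%). At the sites on the other chromosomes, the classes held 26.7% with none and 19.4% with all 3, close to the values with chromosome 1.

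The presence of the other proteins rose with the number of ribosome biogenesis factors. Overexpressed PSPC1 had a peak at 27.3% of the sites with 0 factors, 60.9% with 1, 78.9% with 2 and 90.6% (89.3 to 91.8) with 3, against 34.6% of all merged knock-in regions. For hnRNPU the shares were 5.64%, 19.2%, 37.5% and 54.2%, against 15.9% of those regions. For SAFB they were 1.99%, 6.56%, 11.4% and 19.1% (6.87% of the regions), and for SAFB2 1.13%, 3.92%, 8.41% and 14.1% (4.55%). Each step exceeds the counting intervals for all 4 lists. These lists share the J1 parental line and overexpression with the factor lists, not with the knock-in libraries.

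The rise with factor number was present in both knock-in libraries and at all scores. Over all peaks of 1 library, overexpressed PSPC1 was present at 11.3% (replicate 1) and 11.1% (replicate 2) of peaks with no factor, and at 86.9% and 86.4% of those with 3. In the lowest score quartile of the sites it went from 10.1% to 82.4%, and in the highest from 66.6% to 97.4%. Without chromosome 1 it went from 32.9% to 91.0%. With a reciprocal overlap of 50% the difference between sites with 3 factors and none, 63.3 percentage points, shrank to 12.2. The median peak of overexpressed PSPC1 is 326 bp wide, and 98.1% of those at the sites lie inside the site.

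**Figure D5:**
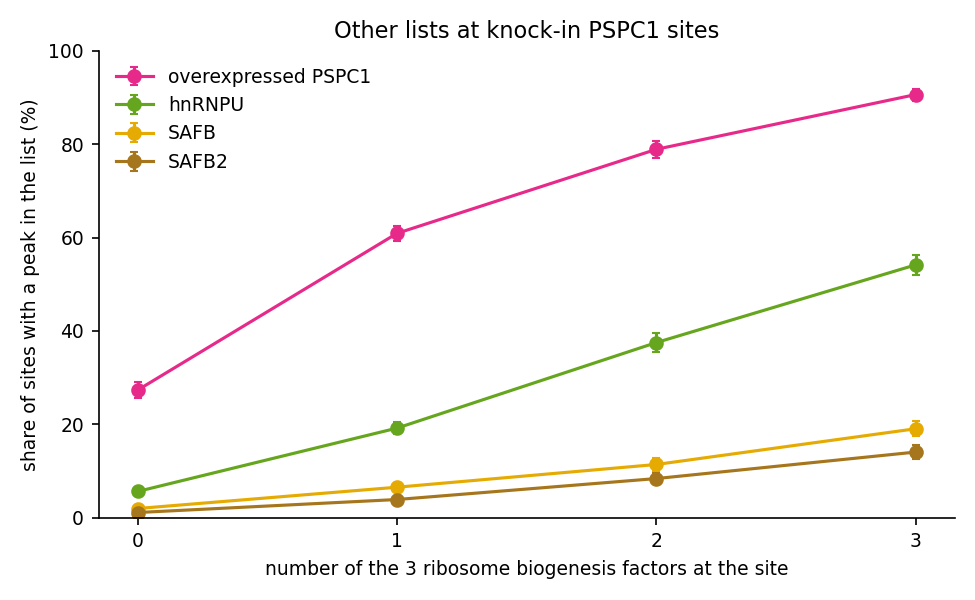
Share of knock-in sites with a peak of overexpressed PSPC1, hnRNPU, SAFB or SAFB2, by the number of ribosome biogenesis factors at the site, with Wilson 95% intervals. All 4 lines rise from 0 to 3 factors, for overexpressed PSPC1 from 27.3% to 90.6% and for hnRNPU from 5.64% to 54.2%.

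For the 2908 sites without a factor, the median distance to the closest factor region was 6.42 kb, with 9.22% of the sites under 1 kb, 63.2% under 10 kb and 97.0% under 100 kb. In all, 1976 of them (68.0%) had a peak in none of the 4 other lists either, against 1369 (18.4%) of the 7444 sites with a factor and 32.3% of all sites. Among sites without a factor, overexpressed PSPC1 was present at 10.1% in the lowest score quartile and 66.6% in the highest. The 5 named for their high knock-in ranks each had such a peak. The first lay on chr18 from 81175902 to 81187530 (11629 bp), with scores of 3100 and 3217 in the knock-in lists and 536 for overexpressed PSPC1. The second was on chr5 from 139467013 to 139475338 (scores of 3147 and 2953), and its peak of overexpressed PSPC1 scored 783 at 170 bp from the centre. The others were on chr3 from 153989819 to 153998494 and on chr2 from 10290313 to 10299325 and from 33482103 to 33502903, the last 2 with hnRNPU as well. Those last 2 tied in rank with the widest site without a factor, on chr19, and were taken ahead of it by chromosome and start. A score of at least 3100 in both knock-in lists was reached by 55 sites without a factor (1.89%). The shares of the sites with 1, 2 and 3 factors were 4.04%, 2.33% and 1.32%. PSPC1 signal at the top of both knock-in lists was therefore found without a called peak of CIRH1A, UTP3 or UTP6. The lowest score in each factor list is 50, and weaker signal is not in the lists.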

How the data were processed

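ChIP-seq peak lists of 5 libraries were compared, and 4 other lists served for reference. Each list holds a position, a name and a score per peak. The authors deposited 1 list per library, so replicates were not pooled. The authors' score per peak carries no unit in the files, and served here for ranks and filters inside 1 list. Per the file contents, peak names carry the name of MACS, and the lowest deposited score is 30.0 in the knock-in lists and about 50 in the others. Mapping to mm9 is named in the submitters' processing notes, with CASAVA, Bowtie2 and TopHat. Caller version, threshold, control and depth are not given in the sources used here.

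Overlap meant at least 1 shared bp. Score ranks are percentiles within a list, averaged over the knock-in libraries. Midpoints stand for peak positions, since the lists give no summits, and offsets of contained peaks are relative to the room their width leaves. Shares have Wilson 95% intervals, and no p-value was computed. The largest peak end stood in for each chromosome's length. Named regions are the 5 best-ranked sites with 3 factors and with 0, and the widest of each class, with ties taken by chromosome and start. Genes were not assigned, because no mm9 annotation was used here. The members and lists were chosen with earlier results of these data known. Alternatives were stricter overlaps, score filters, equal list lengths, chromosome 1 left out or alone, and each knock-in library left out. The overlap counting was tested on simulated peaks. The tools were pandas 2.3.3, numpy 2.4.6, statsmodels 0.14.6, scipy 1.17.1 and matplotlib 3.10.9 under Python 3.11.15.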

Additional observations from a re-analysis of the deposited data

How the results depend on the processing

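The share of sites with all 3 factors (20.5%) was 7.32% with a reciprocal overlap of 50%, 13.9% with 500 bp windows, 18.1% over bases covered by both libraries, 10.9% with the highest-scoring 50% of each list, 15.3% with an equal number of peaks, 22.0% with a score of at least 50 and 19.4% without chromosome 1. The share with none (28.1%) was 54.4%, 45.5%, 34.9%, 46.2%, 56.9% and 23.7% under the first 6 of these. The median width difference between sites with 3 factors and 0 (256 bp) was -800.5, -612.5, 528, -382, -355.5 and 29 bp in the same order, 156 bp without chromosome 1 and 604 bp on chromosome 1 alone. The rank difference (11.8) was -9.21, -1.66, 10.4, -3.54, -5.69 and 4.40 in that order, 6.13 without chromosome 1 and 27.6 on it alone. The difference of chromosome 1 in sites with a factor (-7.83 points) was -5.29 with the reciprocal overlap and -10.9 over bases of both libraries, and turned to 4.50, 13.0 and 0.666 with the highest-scoring 50%, equal numbers and a score of at least 50. The cause of these reversals was not tested.

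The central shares of CIRH1A (85.3%), UTP3 (86.5%) and UTP6 (84.3%) were 81.1%, 84.2% and 81.3% over bases of both libraries, 88.9%, 91.9% and 90.2% with the highest-scoring 50%, and 82.5%, 83.0% and 80.6% in sites of at least 2 kb. With equal numbers UTP3 was 90.6% and UTP6 94.5%. An alternative added after seeing the data took peaks wholly inside a site, relative to the room left by their own width. There the shares were 60.2%, 57.6% and 52.3%. It changed both the peaks counted and the scale, and the part of each was not tested. With 1 knock-in library left out, the ranges were 14.0% to 14.8% (all 3 factors), 44.7% to 47.8% (none), 568 to 599 bp, 28.0 to 29.7 rank points, -19.7 to -17.5 points (chromosome 1), and central shares of 82.2% to 83.4% for CIRH1A, 83.3% to 84.8% for UTP3 and 80.4% to 82.9% for UTP6. In a comparison added likewise, the chromosome 1 difference in sites with all 3 factors, 6.22 points, was between 2.49 and 14.0 points under the other settings and -1.63 to -1.16 points with 1 library left out. The gain in overexpressed PSPC1, 63.3 points, stayed between 12.2 and 81.3 points.

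Depth is unknown, so a missing factor peak cannot be told apart from one under the authors' threshold, and list lengths bear on every share. No paired analysis was possible because just 1 group, the knock-in PSPC1 libraries, has a replicate among these lists.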

Other observations

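Chromosome 8 differed from the other autosomes in the knock-in lists, and was singled out after its values were seen. In replicate 1, 38.6% of its peaks had at least 1 factor, and in replicate 2, 46.5%, the lowest values among autosomes 2 to 19, whose medians were 58.9% and 59.9%. These values lie near those of chromosome 1, 36.9% and 41.1%. It held 7.97% of the replicate 1 peaks, 7.19% of the replicate 2 peaks and 6.11% of the sites. Its share of sites with all 3 factors, 29.4% (26.0 to 33.1), was the highest of all chromosomes. From position 120 Mb onwards the share was 19.8% of 162 sites, and below it 32.8% of 470 sites. Over all peaks of 1 library the share with all 3 factors on chromosome 8 was 14.7% in replicate 1 and 19.2% in replicate 2, so the libraries differed here.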
